A study of Homo sapiens with 6 samples.

Results

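Glycolysis and the hypoxia response were followed through 42 genes of the 34869 in the deposited table. They were taken by name as a list: 17 enzymes from hexokinase to lactate dehydrogenase, 4 glucose and lactate transporters, 4 PDK and PFKFB kinases that set the flow of sugar carbon, 4 genes of the hypoxia-inducible factor (HIF) machinery, and 13 further targets of HIF. RNA was sequenced from NCI-H295R, an established human adrenocortical carcinoma line that secretes adrenal steroids. The cells carried either a lentiviral short hairpin RNA against TPD52 (shTPD52, 3 libraries) or a non-targeting hairpin from the same kind of vector (shCtrl, 3 libraries). Both groups were therefore transduced, and both were grown in serum and insulin-transferrin-selenium medium. The labels name no low-oxygen treatment, and separate cultures are not mentioned, so the p-values reflect only how far these libraries spread, which may be technical. The comparison asks what lowering TPD52, which the series title links to aldosterone synthesis, does to RNA of these genes.

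Glycolysis splits glucose into pyruvate in the cytosol, and lactate dehydrogenase turns pyruvate into lactate when it is not passed to mitochondria. HIF is a pair of proteins, an oxygen-labile alpha subunit (HIF1A or EPAS1) and the stable partner ARNT. In oxygen, EGLN enzymes hydroxylate the alpha subunit and VHL marks it for destruction, so HIF protein is controlled mainly after its RNA is made. When oxygen is short, HIF binds ACGTG or GCGTG cores in DNA and raises most glycolytic genes together with genes of vessel growth, pH control and mitophagy. Steroid-making adrenal cells need oxygen for their cytochrome P450 enzymes.

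With the hairpin against TPD52, 10 of the 41 members tested fell, 1 rose and 30 did not pass. The fallers were the enzymes ENO2, PFKL, PFKP, ALDOA and PGAM1, the glucose transporter SLC2A3, the HIF partner ARNT, and the HIF targets VEGFA, NDRG1 and P4HA2. LDHB, the minor lactate dehydrogenase subunit of these cells, was the riser. Over all 12782 genes tested, 12.7% fell and 5.63% rose, 18.3% in all, where 24.4% of the members fell. The test was limma on log2(FPKM + 0.5) with p-values adjusted by Benjamini-Hochberg across these genes, and 0.05 was the threshold. FPKM is reads scaled to the length of the gene and to the total of the library. Levels of different genes can be set side by side only roughly, since that length, of all exons joined, can exceed that of the transcripts present. Genes entered the test with a mean of at least 1 FPKM. ANKRD37 lay just inside that limit with a mean of 1.00 FPKM over the 6 libraries, and SLC16A3 was the only member outside it. The largest changes in mean FPKM were to 0.537 times the shCtrl level for ENO2 and to 1.78 times for LDHB.

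**Figure D1:**
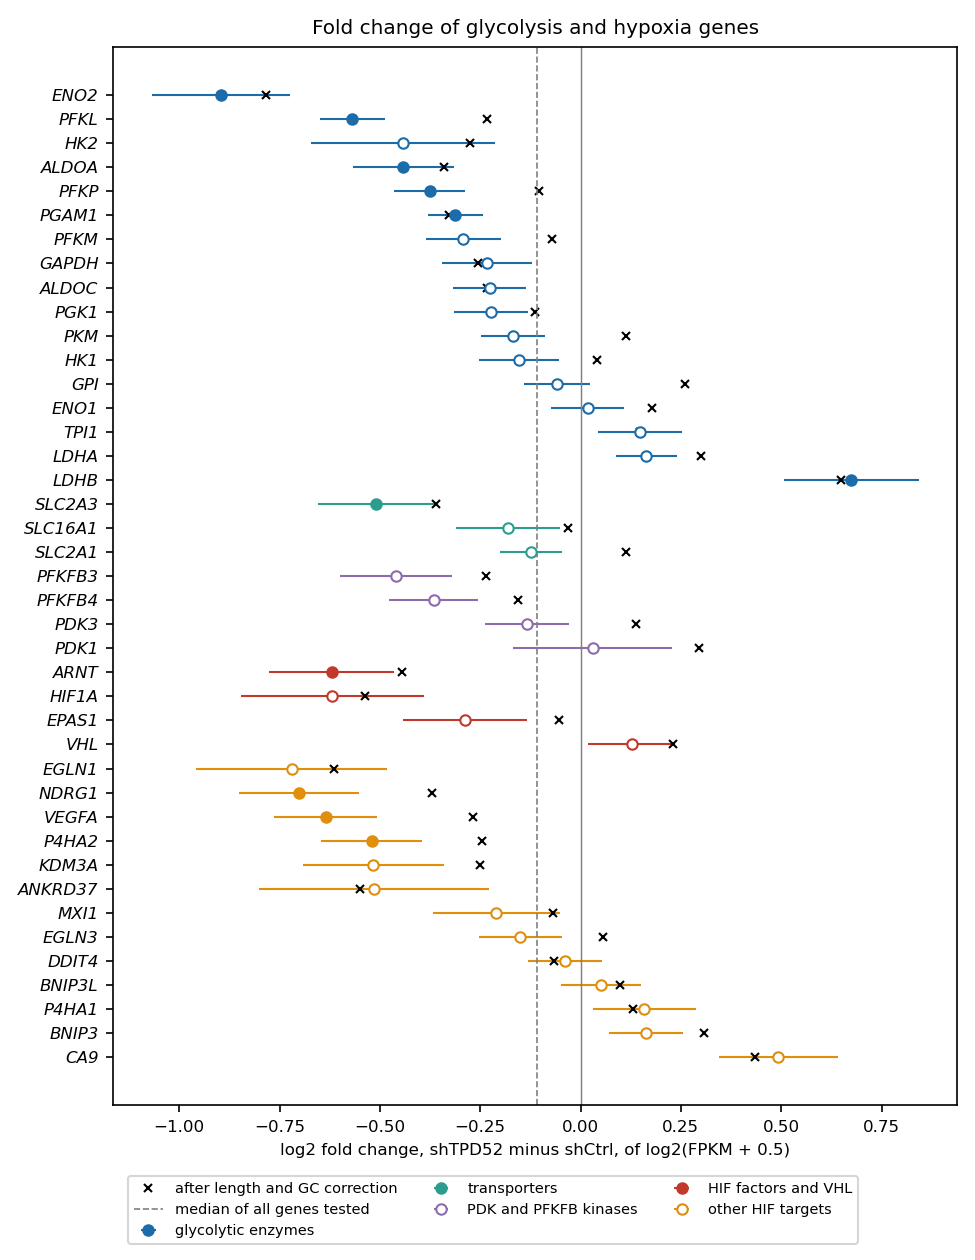
Log2 fold change (shTPD52 minus shCtrl) of the 41 members tested, by role, with bars of 1 SE. Filled circles passed the threshold, open circles did not. Crosses give the value after a correction for gene length and GC content, and the dashed line is the median of all genes tested, -0.11. ENO2 lies farthest left at -0.90 and LDHB farthest right at 0.67.

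The recovered depth was 29544341 to 38396624 reads in the shTPD52 libraries and 30582681 to 36885546 in the shCtrl libraries. Odd numbers made up 26.9% to 30% of small counts, as when both mates of a pair are counted, so the reads given here may stand for fewer fragments. TPD52 itself was under 1 FPKM on average and outside the limma test. It averaged 0.640 ± 0.013 FPKM in shTPD52 and 1.30 ± 0.12 FPKM in shCtrl (SD, n = 3 each). A two-sided exact permutation test gave p = 0.1, and 3 against 3 libraries allow none smaller. Of the shTPD52 libraries, replicate 2 stood apart, at 0.291 on the first principal component of all genes tested, against 27.3 and 35.3 for replicates 1 and 3 and -24.1 to -16.4 for the shCtrl libraries. Mitochondrially encoded genes took 22.1% ± 2.37 of shTPD52 reads and 17.9% ± 0.53 of shCtrl reads (n = 3 each; exact permutation p = 0.1, two-sided), and these reads are part of the total by which every FPKM is divided. All 11 adrenocortical markers were above a mean of 1 FPKM, with a summed level of 490 to 497 FPKM in shTPD52 and 429 to 453 FPKM in shCtrl. Of these 11, 5 rose and 1 fell, where 5.63% of all genes rose and 12.7% fell. None of 6 fibroblast, 4 endothelial, 4 leukocyte and 3 adrenal medulla markers reached that mean, and their sums stayed at or under 1.55 FPKM in shTPD52 and 1.73 FPKM in shCtrl. In bulk RNA, fewer cells of a kind and less RNA per cell cannot be told apart.

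More genes fell than rose in the whole table too, on the deposited scale. The median log2 fold change was -0.23 for the 24 glycolytic members tested (enzymes, transporters and kinases), -0.21 for the 13 other HIF targets and -0.11 for all genes. Of the glycolytic members 6 of 24 (25.0%) were called lower, and of the other targets 3 of 13 (23.1%). How near the medians lay to each other depended on the setting: they were -0.265 and -0.0925 with quantile normalization, -0.225 and -0.124 with a filter at 5 FPKM, and -0.266 and -0.387 without shTPD52 replicate 2. The difference between both groups of targets was not tested. In all, 720 genes rose and 1621 fell, a split that depended on scaling: 993 and 1196 with median-ratio scaling, 1152 and 1188 with quantile normalization and 977 and 1216 after rescaling to non-mitochondrial reads. Median-ratio scaling of the libraries moved the median of all genes to -0.017 and those of the glycolytic and other targets to -0.12 and -0.11. Relative to all genes, both groups of targets then still stood about as far below as before.

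Gene length and GC content mattered for these calls. Across all genes, long genes had the lower fold changes in shTPD52 (Spearman's rho of fold change with length -0.344 over 12660 genes), and across the 41 members rho was -0.285. These are descriptions, since genes of a library share its depth and quality. Each library's trend on length and GC content was removed in an alternative fit, in which 10.4% of genes were lower and 10.6% higher. In it 4 members were lower (ENO2, PGAM1, ARNT and EGLN1) and 4 higher (LDHA, LDHB, BNIP3 and CA9), and the medians of the glycolytic and other targets were -0.087 and -0.068 against 0.0052 for all genes. PFKL, PFKP, ALDOA, SLC2A3, VEGFA, NDRG1 and P4HA2 no longer passed. Whether the length trend is technical or part of the knockdown was not tested.

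**Figure D2:**
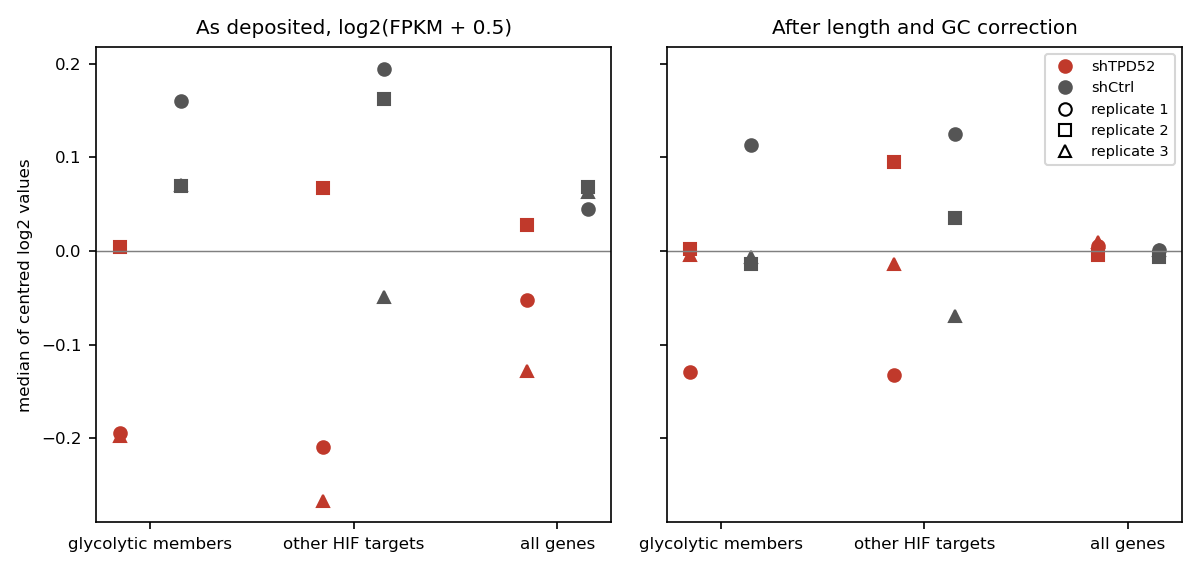
Median of each library over the 24 glycolytic members, the 13 other HIF targets and all genes tested, after centring each gene on its mean over the 6 libraries (log2 scale), with shTPD52 left of shCtrl. On the left, as deposited, shTPD52 replicates 1 and 3 lie between -0.27 and -0.19 for both groups of targets and replicate 2 near 0. On the right, after the length and GC correction, shTPD52 and shCtrl overlap.

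The calls also depended on single libraries. Without shTPD52 replicate 2, 23 members were lower and 2 higher, where 32.9% and 12.6% of all genes were. Without shTPD52 replicate 3 the called members were PFKL, ENO2 and VEGFA, in a fit that called 897 of 12782 genes. Without shCtrl replicate 2 they were PFKL and ENO2, in a fit that called 450. Leaving out shTPD52 replicate 1, shCtrl replicate 1 or shCtrl replicate 3 left no member called, in fits that called 159, 226 and 87 genes in all. For all 10 members called lower, replicate 2 was the highest of the shTPD52 libraries, while staying below every shCtrl library. Among all 1621 genes called lower it was highest for 75.1%.

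**Figure D3:**
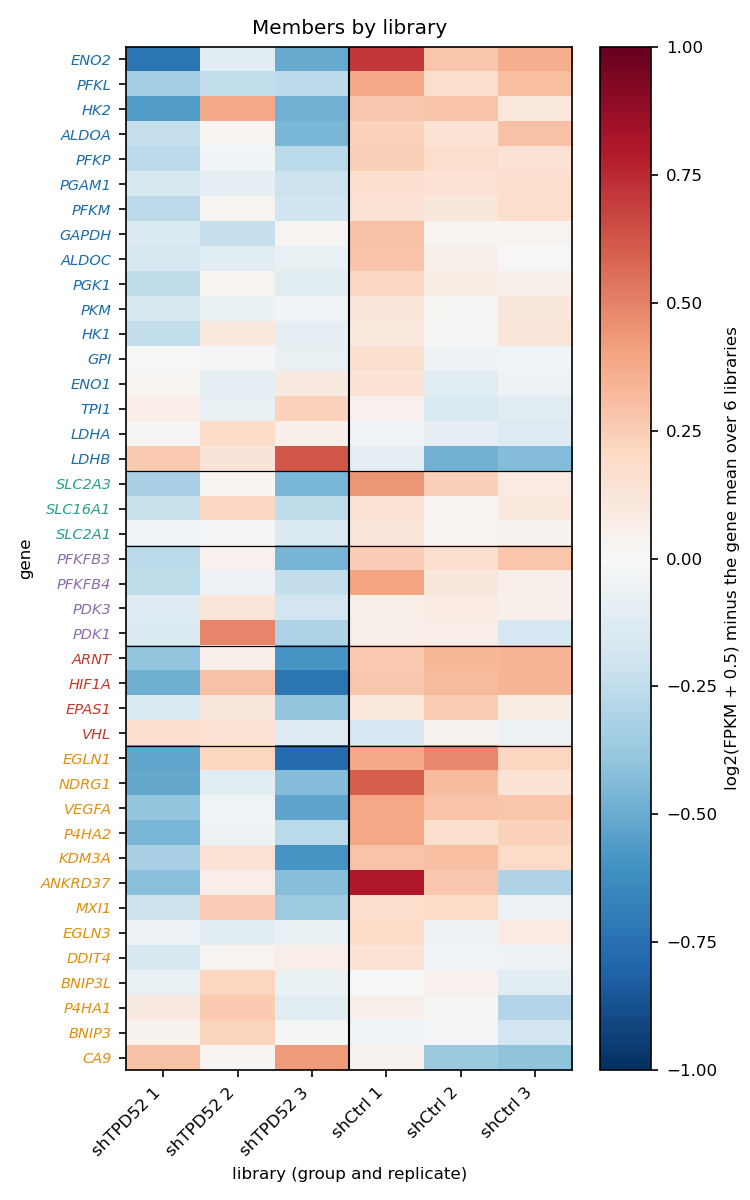
Log2(FPKM + 0.5) of the 41 members tested, minus each gene's mean over the 6 libraries, with the shTPD52 libraries left of the shCtrl libraries and blocks by role (enzymes, transporters, kinases, HIF factors and VHL, other HIF targets, top to bottom). Blue is below and red above the gene's mean. Most members are blue in shTPD52 replicates 1 and 3 and pale in replicate 2, and LDHB and CA9 run the other way.

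Of the HIF machinery, ARNT fell, and HIF1A and EPAS1 split by library. ARNT (ENSG00000143437, GRCh38 chromosome 1, 150809705 to 150876768, minus strand) measured 7.64, 10.6 and 6.60 FPKM in shTPD52 replicates 1, 2 and 3, against 12.3, 12.95 and 13 FPKM in shCtrl replicates 1, 2 and 3. The groups did not overlap, and ARNT fell by 0.62 in log2 units (adjusted p = 0.0341 by limma, SE 0.16). It was also lower after the length and GC correction (by limma, adjusted p = 0.0253, log2 fold change -0.45).

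HIF1A (ENSG00000100644, chromosome 14, 61695513 to 61748259, plus strand) was by far the more abundant alpha subunit. It had 61.5, 106 and 52.0 FPKM in shTPD52 replicates 1, 2 and 3, against 105, 108 and 110 FPKM in shCtrl. Replicates 1 and 3 were far below every shCtrl library, while replicate 2 lay within the shCtrl range. HIF1A did not pass (log2 fold change -0.62, SE 0.23, limma adjusted p = 0.0900), and without shTPD52 replicate 2 it was -0.92 (limma adjusted p = 0.00116). That fit called 5825 of 12782 genes, and HIF1A passed in 3 of the 20 other settings tried, with limma adjusted p up to 0.255. EPAS1, which encodes HIF-2 alpha, averaged 1.72 ± 0.39 FPKM in shTPD52 and 2.18 ± 0.18 FPKM in shCtrl (SD, n = 3 each) and did not pass. For EPAS1 too, shTPD52 replicates 1 and 3 lay below every shCtrl library and replicate 2 within the shCtrl range. Without shTPD52 replicate 2 EPAS1 was -0.42 (limma adjusted p = 0.0355), and -0.13 with the length and GC correction as well (limma adjusted p = 0.393). Its ratio to HIF1A was 0.0244 ± 0.0038 in shTPD52 and 0.0204 ± 0.0018 in shCtrl. VHL, the substrate receptor of the ubiquitin ligase, had 13.7 ± 1.58 FPKM in shTPD52 and 12.5 ± 0.92 FPKM in shCtrl (limma adjusted p = 0.406). Thus the partner ARNT was lower, HIF1A and EPAS1 were below every shCtrl library in 2 of 3 shTPD52 libraries, and VHL overlapped between groups.

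The proximal promoters show how the HIF core is spread over these genes. RefSeq promoters (GRCh38.p14, 250 bases before to 50 after the start) were found for 36 of 42 members, and BNIP3L, NDRG1, SLC16A1, SLC2A3, VEGFA and VHL were not matched. The cores ACGTG and GCGTG were searched on both strands. A palindromic CACGTG holds ACGTG on both strands and counts at both. Either core was in 25 of 36 member promoters (69.4%), against 48.4% of 27305 promoters. The shares were 16 of 23 (69.6%) for glycolytic members and 7 of 10 (70.0%) for other targets. Below are a member that fell (ENO2), 1 that moved with single libraries (EGLN1) and 3 whose RNA did not fall (CA9, BNIP3 and LDHA), with the cores in capitals.
ENO2, chr12:6914330-6914629, plus strand: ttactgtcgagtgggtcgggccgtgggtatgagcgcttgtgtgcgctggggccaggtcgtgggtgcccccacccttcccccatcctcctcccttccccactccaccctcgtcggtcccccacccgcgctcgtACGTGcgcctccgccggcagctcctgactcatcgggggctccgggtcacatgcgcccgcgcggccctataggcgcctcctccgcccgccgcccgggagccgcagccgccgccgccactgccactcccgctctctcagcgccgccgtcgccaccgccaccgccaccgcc
EGLN1, chr1:231422238-231422537, minus strand: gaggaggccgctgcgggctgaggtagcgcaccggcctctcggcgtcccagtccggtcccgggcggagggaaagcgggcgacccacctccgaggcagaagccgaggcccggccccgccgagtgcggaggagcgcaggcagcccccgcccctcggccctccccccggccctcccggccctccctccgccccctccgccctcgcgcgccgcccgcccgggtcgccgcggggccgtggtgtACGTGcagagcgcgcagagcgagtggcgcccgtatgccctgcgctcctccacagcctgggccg
CA9, chr9:35673678-35673977, plus strand: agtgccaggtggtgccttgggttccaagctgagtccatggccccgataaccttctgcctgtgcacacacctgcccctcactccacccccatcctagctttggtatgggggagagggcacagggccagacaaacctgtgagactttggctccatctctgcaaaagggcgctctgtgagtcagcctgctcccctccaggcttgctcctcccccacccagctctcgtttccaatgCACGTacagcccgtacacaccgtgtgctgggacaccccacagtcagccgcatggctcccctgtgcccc
BNIP3, chr10:131981874-131982173, minus strand: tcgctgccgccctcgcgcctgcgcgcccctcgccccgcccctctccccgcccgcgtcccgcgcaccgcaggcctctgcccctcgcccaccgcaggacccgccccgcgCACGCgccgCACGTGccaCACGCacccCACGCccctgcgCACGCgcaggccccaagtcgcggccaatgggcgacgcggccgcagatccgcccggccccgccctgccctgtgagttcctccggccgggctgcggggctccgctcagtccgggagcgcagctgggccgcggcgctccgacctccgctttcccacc
LDHA, chr11:18394313-18394612, plus strand: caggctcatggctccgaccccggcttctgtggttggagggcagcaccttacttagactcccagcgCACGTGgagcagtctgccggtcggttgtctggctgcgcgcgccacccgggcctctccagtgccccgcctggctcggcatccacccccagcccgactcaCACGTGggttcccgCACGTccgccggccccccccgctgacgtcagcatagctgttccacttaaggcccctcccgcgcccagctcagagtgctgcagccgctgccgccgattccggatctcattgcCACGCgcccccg

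ENO2 holds a single core 118 bases before the start, EGLN1 1 at 13 bases before and CA9 1 at 18 bases before. BNIP3 holds 6 matches and LDHA 6, the most of any member promoter. ARNT, PFKP, PGAM1 and P4HA2, which fell, hold none in this window. The fallers PFKL and ALDOA hold 1 each, at 164 and 178 bases before the start. HK1, PFKM, TPI1, PDK1, EGLN3 and MXI1, which did not pass, hold none either, nor does SLC16A3, which was not tested. A match is a description of letters and not a bound site, and no match says nothing about HIF outside the window.

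Among transporters, the neuronal-type glucose carrier SLC2A3 fell and the common carrier SLC2A1 did not pass. SLC2A3 (ENSG00000059804, chromosome 12, 7919230 to 7936275, minus strand) had 10.6, 13.6 and 9.68 FPKM in shTPD52 replicates 1, 2 and 3, against 18.5, 16.0 and 14.3 FPKM in shCtrl. Every shTPD52 library was lower than every shCtrl library, though by little for shTPD52 replicate 2 and shCtrl replicate 3. SLC2A3 fell by 0.51 in log2 units (adjusted p = 0.0460 by limma, SE 0.14), and it no longer passed after median-ratio scaling (-0.41, limma adjusted p = 0.0615). Reads of its close copy SLC2A14 can be shared with it, so its level is uncertain. SLC2A1 had 21.2 ± 1.08 FPKM in shTPD52 and 23.1 ± 0.87 FPKM in shCtrl (n = 3 each; limma adjusted p = 0.271), and its sign turned after the length and GC correction (0.11). SLC16A1, the lactate carrier MCT1, had 13.6 ± 2.61 FPKM in shTPD52 and 15.3 ± 0.71 FPKM in shCtrl (limma adjusted p = 0.330). SLC16A3, the lactate exporter MCT4 that HIF raises in many tumours, was nearly silent at 0.106 ± 0.013 FPKM in shTPD52 and 0.135 ± 0.037 FPKM in shCtrl, from 31 to 50 reads per library.

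In the upper pathway, from glucose to triose phosphate, the phosphofructokinase genes PFKL and PFKP and the aldolase gene ALDOA fell. PFKL (ENSG00000141959, chromosome 21, 44300051 to 44327376, plus strand), the liver-type subunit of this committed step, had 30.04, 32.1 and 31.8 FPKM in shTPD52, against 49.8, 43.2 and 47.4 FPKM in shCtrl. The groups lay well apart, and shTPD52 replicate 2 lay next to replicate 3. PFKL fell by 0.57 in log2 units (adjusted p = 0.0102 by limma, SE 0.08), and by 0.23 after the length and GC correction (by limma, adjusted p = 0.0739). PFKP, the platelet-type subunit, had 39.0, 46.0 and 38.8 FPKM in shTPD52, against 55.5, 53.1 and 52.0 FPKM in shCtrl, and fell by 0.38 (limma adjusted p = 0.0294). The muscle-type subunit PFKM had 21.6 ± 2.39 FPKM in shTPD52 and 26.4 ± 0.58 FPKM in shCtrl, also without overlap, but did not pass (log2 fold change -0.29, limma adjusted p = 0.0640). After the correction for length and GC content PFKP and PFKM stood at -0.10 and -0.071.

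Of the hexokinases, which trap glucose in the cell, HK1 was the more abundant and neither passed. HK2, the inducible form, had 7.49, 14.8 and 7.95 FPKM in shTPD52 replicates 1, 2 and 3, against 13.7, 13.9 and 12.2 FPKM in shCtrl. As with HIF1A, replicates 1 and 3 were low and replicate 2 was not (log2 fold change -0.44, limma adjusted p = 0.192, and -0.74, limma adjusted p = 0.0015, without replicate 2). HK2 passed in 2 of the 20 other settings tried, both without that library. HK1 had 34.0 ± 4.09 FPKM in shTPD52 and 37.7 ± 1.52 FPKM in shCtrl. The isomerase gene GPI had 72.9 ± 2.12 FPKM in shTPD52 and 76.2 ± 6.19 FPKM in shCtrl, with a sign that turns under median-ratio scaling, rescaling to non-mitochondrial reads and the length and GC correction. Aldolase A fell and aldolase C did not pass. ALDOA (ENSG00000149925, chromosome 16, 30064164 to 30070457, plus strand) had 11.2, 13.5 and 9.54 FPKM in shTPD52, against 15.6, 14.7 and 16.4 FPKM in shCtrl, and fell by 0.44 (SE 0.13, limma adjusted p = 0.0477). Exons of another gene on the same strand cover 42.3% of its exons, so its level, low for a main glycolytic enzyme, is uncertain. ALDOC, the brain-type aldolase, was higher than ALDOA in all 6 libraries, with 71.1 ± 2.27 FPKM in shTPD52 and 83.6 ± 9.10 FPKM in shCtrl (limma adjusted p = 0.112). TPI1, triose phosphate isomerase, had 878 ± 94.1 FPKM in shTPD52 and 791 ± 56.5 FPKM in shCtrl (limma adjusted p = 0.320, sign turning with quantile normalization).

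**Figure D4:**
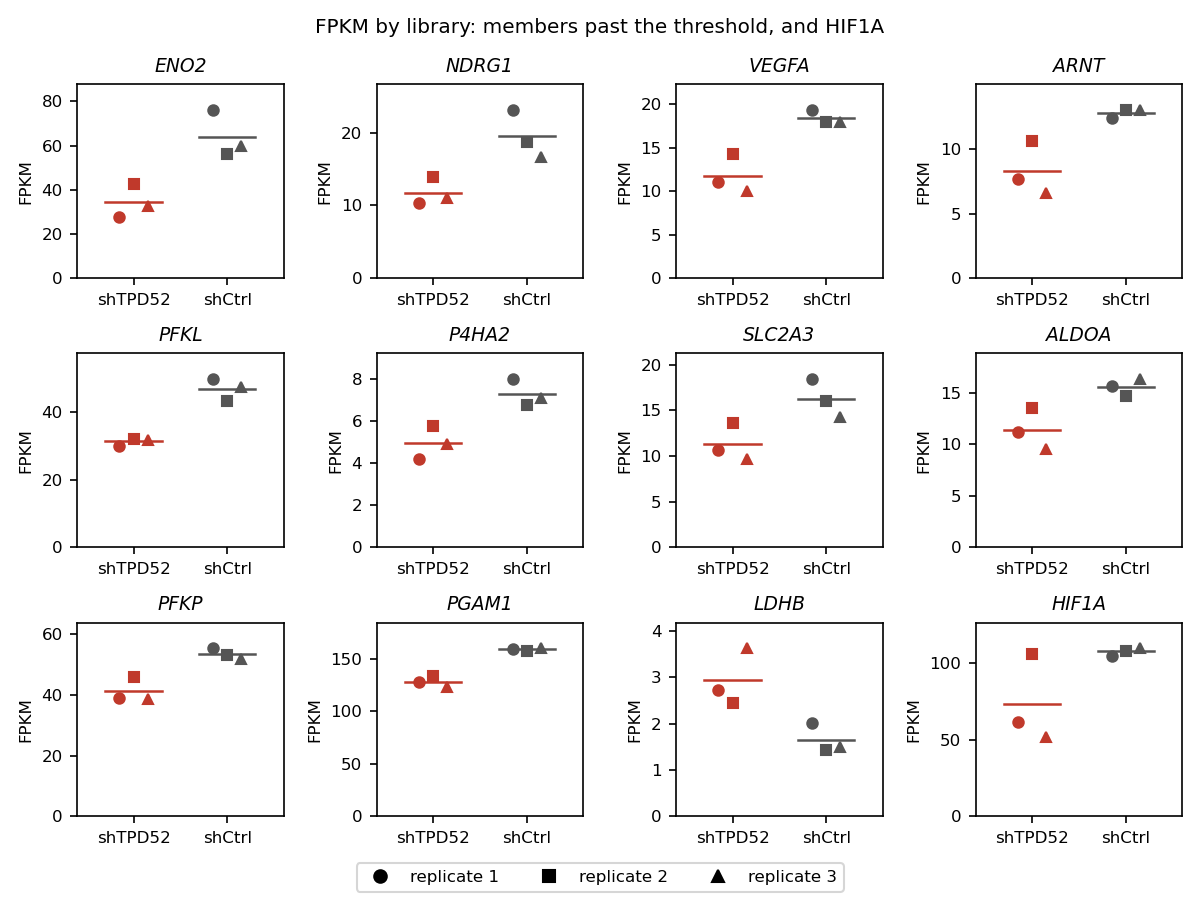
FPKM per library of the 11 members past the threshold and of HIF1A, with shTPD52 left of shCtrl. Symbols mark the replicate and lines the group means. In the 10 fallers shTPD52 replicate 2 (square) is the highest knockdown library, and in HIF1A it reaches the shCtrl libraries at 106 FPKM.

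In the lower pathway, from triose phosphate to lactate, ENO2 carried the largest fall of any member. ENO2 (ENSG00000111674, chromosome 12, 6913745 to 6923698, plus strand), the neuron-type enolase, had 27.8, 42.7 and 32.6 FPKM in shTPD52 replicates 1, 2 and 3, against 76.2, 56.1 and 59.7 FPKM in shCtrl, from 3513 to 6675 and 7349 to 11181 reads per library. The groups did not overlap, with shTPD52 replicate 2 nearest to the controls. ENO2 fell by 0.90 in log2 units (adjusted p = 0.0178 by limma, SE 0.17), and by 0.78 after the length and GC correction (by limma, adjusted p = 0.0239). The ubiquitous enolase ENO1 had 148 ± 9.23 FPKM in shTPD52 and 147 ± 13.2 FPKM in shCtrl (log2 fold change 0.018, limma adjusted p = 0.901), with a sign that turns under quantile normalization. PGAM1, phosphoglycerate mutase, had 128, 134 and 123 FPKM in shTPD52, against 160, 158 and 161 FPKM in shCtrl, with no overlap. It fell by 0.31 (SE 0.07, limma adjusted p = 0.0250) and by 0.33 after the length and GC correction (by limma, adjusted p = 0.0204), but not past the threshold with median-ratio scaling (-0.21, limma adjusted p = 0.0920).

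The remaining enzymes of the lower pathway did not pass. GAPDH had 1218, 1144 and 1368 FPKM in shTPD52, against 1645, 1372 and 1372 FPKM in shCtrl, so the groups barely separated (log2 fold change -0.23, limma adjusted p = 0.161). PGK1, an ATP-making step, had 161 ± 15.5 FPKM in shTPD52 and 188 ± 10.7 FPKM in shCtrl (limma adjusted p = 0.118). PKM, pyruvate kinase, had 687 ± 31.9 FPKM in shTPD52 and 771 ± 31.4 FPKM in shCtrl (limma adjusted p = 0.160), and its sign turned after the length and GC correction (0.11). Several members have processed pseudogenes that can share their reads. Those in the table summed to 36.2% of the member's own FPKM for LDHB (2 pseudogenes), 6.45% for BNIP3 (26), 3.54% for TPI1 (3), 0.781% for GAPDH (30) and 0.379% for PGAM1 (8).

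Both lactate dehydrogenase genes lay above the shCtrl level. LDHB (ENSG00000111716, chromosome 12, 21635342 to 21757857, minus strand), the heart-type subunit, had 2.73, 2.45 and 3.64 FPKM in shTPD52, against 2.01, 1.44 and 1.5 FPKM in shCtrl, from 241 to 417 and 131 to 206 reads per library. All 3 shTPD52 libraries were higher, and LDHB rose by 0.67 in log2 units (adjusted p = 0.0336 by limma, SE 0.17), with 0.65 after the length and GC correction (by limma, adjusted p = 0.0436). Its pseudogenes, and a gene on the same strand that covers 33.4% of its exons, make this low level uncertain. LDHA, the muscle-type subunit that makes lactate, had 134, 151 and 137 FPKM in shTPD52, against 129, 125 and 122 FPKM in shCtrl. Its groups did not overlap, yet it did not pass (log2 fold change 0.16, limma adjusted p = 0.154), and after the length and GC correction it was higher (0.30, limma adjusted p = 0.0316). Over all members tested, 20 had every shTPD52 library below every shCtrl library and 2 (LDHA and LDHB) had every one above, where 28.3% and 13.8% of all genes did.

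The kinases that steer glycolysis did not pass, although both PFKFB genes had groups that did not overlap. PFKFB3, which makes the activator of phosphofructokinase, had 3.23, 4.13 and 2.76 FPKM in shTPD52, against 4.84, 4.54 and 4.94 FPKM in shCtrl (log2 fold change -0.46, limma adjusted p = 0.0547). PFKFB4, a hypoxia-inducible isoenzyme, had 16.6, 19.1 and 16.8 FPKM in shTPD52, against 26.3, 21.5 and 20.6 FPKM in shCtrl (log2 fold change -0.37, limma adjusted p = 0.0563). Both were lower by limma-voom on the recovered reads and with shTPD52 replicate 2 left out. After the length and GC correction PFKFB3 and PFKFB4 stood at -0.24 and -0.16 and did not pass (limma adjusted p = 0.165 and 0.288). PDK1, which shuts pyruvate dehydrogenase, had 5.04, 8.03 and 4.43 FPKM in shTPD52, against 5.85, 5.88 and 4.90 FPKM in shCtrl, with shTPD52 replicate 2 the highest of all 6. PDK3 had 6.06 ± 0.76 FPKM in shTPD52 and 6.67 ± 0.08 FPKM in shCtrl (limma adjusted p = 0.373), with a sign that turns under quantile normalization and the length and GC correction.

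Outside glycolysis, the 13 HIF targets did not move as 1 block. VEGFA, NDRG1 and P4HA2 fell, while CA9, BNIP3 and P4HA1 had positive values that did not pass. VEGFA (ENSG00000112715, chromosome 6, 43770184 to 43786487, plus strand), the growth factor for vessels, had 11.1, 14.3 and 10.0 FPKM in shTPD52, against 19.4, 18.0 and 17.9 FPKM in shCtrl. It fell by 0.64 in log2 units (adjusted p = 0.0202 by limma, SE 0.13), and by 0.27 after the length and GC correction (by limma, adjusted p = 0.0589). NDRG1 (ENSG00000104419, chromosome 8, 133237171 to 133302022, minus strand), a stress-induced growth regulator, had 10.4, 14.0 and 10.99 FPKM in shTPD52, against 23.1, 18.7 and 16.6 FPKM in shCtrl. It fell by 0.70 (SE 0.15, limma adjusted p = 0.0230), and by 0.37 after that correction (limma adjusted p = 0.0932). P4HA2, a subunit of collagen prolyl hydroxylase, had 4.22, 5.75 and 4.90 FPKM in shTPD52, against 8.01, 6.77 and 7.11 FPKM in shCtrl, and fell by 0.52 (SE 0.13, limma adjusted p = 0.0310). Its paralog P4HA1 had 33.8 ± 4.46 FPKM in shTPD52 and 30.2 ± 3.86 FPKM in shCtrl (limma adjusted p = 0.387).

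The oxygen sensor gene EGLN1 and the histone demethylase gene KDM3A were also lowest in shTPD52 replicates 1 and 3. EGLN1 had 1.53, 2.86 and 1.2 FPKM in shTPD52 replicates 1, 2 and 3, against 3.28, 3.56 and 2.88 FPKM in shCtrl (log2 fold change -0.72, limma adjusted p = 0.0694). KDM3A had 4.81, 6.85 and 3.91 FPKM in shTPD52, against 7.61, 7.68 and 7.10 FPKM in shCtrl (log2 fold change -0.52, limma adjusted p = 0.0729). In both, replicate 2 lay just under the lowest shCtrl library. EGLN3, a hypoxia-inducible sensor, had 3.71 ± 0.09 FPKM in shTPD52 and 4.19 ± 0.40 FPKM in shCtrl (limma adjusted p = 0.308). MXI1, a MYC antagonist, had 9.98 ± 2.38 FPKM in shTPD52 and 11.5 ± 1.08 FPKM in shCtrl. ANKRD37 had 0.571, 0.998 and 0.566 FPKM in shTPD52, against 1.99, 1.22 and 0.662 FPKM in shCtrl, a spread among shCtrl libraries as wide as the difference. Exons of UFSP2 on the other strand cover 35.2% of ANKRD37, and no strand setting is given in the sources used here.

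CA9 had the highest fold change of the other targets. CA9 (ENSG00000107159, chromosome 9, 35673856 to 35681159, plus strand), a carbonic anhydrase used as a hypoxia marker, had 32.6, 26.9 and 35.7 FPKM in shTPD52, against 27.2, 20.4 and 19.9 FPKM in shCtrl. Replicate 2 of shTPD52 lay just under replicate 1 of shCtrl, and CA9 did not pass (log2 fold change 0.49, SE 0.15, limma adjusted p = 0.0537). It passed, as higher, in 8 of the 20 other settings tried, of which the length and GC correction is one (0.44, limma adjusted p = 0.0403). ARHGEF39 exons on the opposite strand cover 38.5% of CA9. BNIP3 and BNIP3L, receptors for mitophagy, averaged 69.7 ± 6.27 and 25.7 ± 3.04 FPKM in shTPD52 and 62.1 ± 4.08 and 24.7 ± 1.36 FPKM in shCtrl (n = 3 each). BNIP3 was higher after the length and GC correction (by limma, adjusted p = 0.0284, log2 fold change 0.31). DDIT4, an inhibitor of mTORC1, had 51.1 ± 4.21 FPKM in shTPD52 and 52.4 ± 3.79 FPKM in shCtrl (limma adjusted p = 0.783), its sign turning with median-ratio scaling and rescaling to non-mitochondrial reads. Exons of the antisense gene DDIT4-AS1 cover 41.2% of it.

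Ratios between paralogs in the same library do not depend on library scaling, though trends on gene length and GC content can move them, and 13 of 14 pairs could be tested. SLC16A3 with SLC16A1 was left out for its low level. The ratio of ENO2 to ENO1 was 0.185, 0.309 and 0.208 in shTPD52 replicates 1, 2 and 3, against 0.472, 0.411 and 0.420 in shCtrl. P4HA2 to P4HA1 was 0.124, 0.151 and 0.167 in shTPD52, against 0.244, 0.211 and 0.276 in shCtrl. SLC2A3 to SLC2A1 was 0.491, 0.619 and 0.484 in shTPD52, against 0.765, 0.709 and 0.628 in shCtrl. In each of these the less abundant paralog lost ground in all 3 knockdown libraries.

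LDHB to LDHA moved the other way, at 0.0204, 0.0163 and 0.0265 in shTPD52, against 0.0156, 0.0115 and 0.0123 in shCtrl. PFKM to PFKL was also higher, 0.687 ± 0.060 in shTPD52 and 0.566 ± 0.034 in shCtrl (SD, n = 3 each), and BNIP3L to BNIP3 lower, 0.369 ± 0.013 in shTPD52 and 0.399 ± 0.006 in shCtrl. The groups did not overlap for these 6 pairs of 13, 4 lower and 2 higher. Each had an exact permutation p of 0.1, two-sided, the smallest that 3 against 3 libraries can give, and 0.217 adjusted over the 13 pairs. Of all single genes tested, 28.3% lay wholly below and 13.8% wholly above, so the count of pairs does not stand out. The share over other pairs of genes was not measured. The other 7 pairs overlapped between groups. For HK2 to HK1 and EGLN3 to EGLN1, shTPD52 replicate 2 stood with the shCtrl libraries. The length and GC correction was made on the log2(FPKM + 0.5) scale, while the uncorrected ratios have no 0.5 added. The moves from uncorrected to corrected values therefore mix both, most for low genes such as LDHB and EPAS1. Corrected, the log2 difference went to -0.38 for P4HA2/P4HA1 (-0.73 uncorrected) and to 0.16 for PFKM/PFKL (0.28 uncorrected). LDHB/LDHA went to 0.35 (0.67 uncorrected) and its groups then overlapped. BNIP3L/BNIP3 went to -0.21 (-0.11 uncorrected). Pseudogenes of BNIP3 summed to 6.45% of its FPKM, and whether their reads move this ratio was not tested. ENO2/ENO1 and SLC2A3/SLC2A1 moved little, to -0.96 and -0.47 (-0.93 and -0.40 uncorrected). EPAS1/HIF1A, at 0.48 (0.26 uncorrected), no longer overlapped between groups. With 0.5 added but no correction, the log2 fold changes were 0.67 for LDHB and 0.16 for LDHA. They were -0.29 for EPAS1 and -0.62 for HIF1A.

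**Figure D5:**
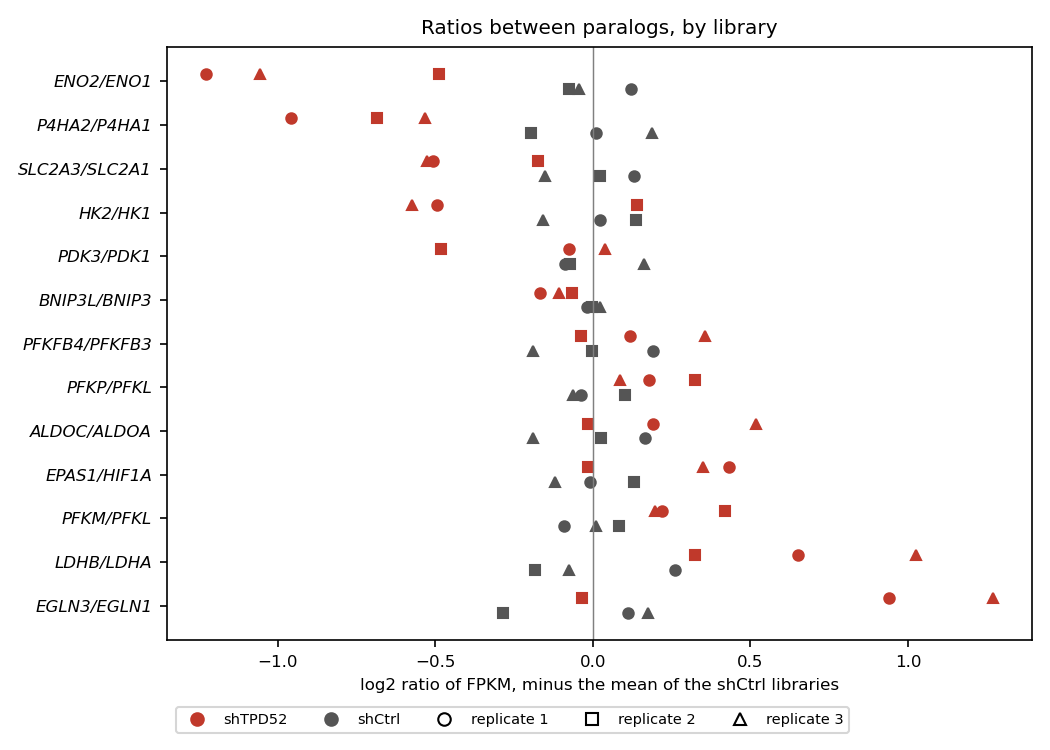
Log2 ratio of FPKM between paralogs in each library, minus the mean of the 3 shCtrl libraries, with shTPD52 (red) above shCtrl (grey) in each row. ENO2/ENO1, P4HA2/P4HA1, SLC2A3/SLC2A1 and BNIP3L/BNIP3 lie lower in all 3 shTPD52 libraries, and PFKM/PFKL and LDHB/LDHA higher.

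Neighbouring steps outside the 42 genes were read from further lists. Of 10 other genes tested from glycolysis, sugar transport and nearby steps, 1 rose and none fell, where 5.63% and 12.7% of all genes did. The riser was ENO3, the muscle-type enolase, at 37.3, 32.0 and 38.6 FPKM in shTPD52, against 21.9, 19.4 and 21.1 FPKM in shCtrl (log2 fold change 0.77, limma adjusted p = 0.00691). Thus ENO2 fell, ENO3 rose and ENO1 did not pass. Of 14 genes of pyruvate entry into mitochondria, 1 rose and 2 fell, and the 14.3% that fell is near the 12.7% of all genes. PC, pyruvate carboxylase, fell by 0.58 (limma adjusted p = 0.0112) and PDPR, a regulator of pyruvate dehydrogenase phosphatase, by 0.62 (limma adjusted p = 0.0353). MPC2, a subunit of the mitochondrial pyruvate carrier, rose by 0.57 (limma adjusted p = 0.0260). Corrected for length and GC content, PC and PDPR stood at -0.30 and -0.35 and passed (limma adjusted p = 0.0246 and 0.0429). None of 8 pentose phosphate genes passed, where 18.3% of all genes did.

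Of 13 further HIF regulators tested, 1 rose and 2 fell, and the 15.4% that fell is near the 12.7% of all genes. CITED2, which competes with HIF for its coactivators, had 11.8, 12.2 and 9.15 FPKM in shTPD52, against 18.4, 18.2 and 17.6 FPKM in shCtrl (log2 fold change -0.70, limma adjusted p = 0.0130). EGLN2, another oxygen sensor, fell by 0.48 (limma adjusted p = 0.0422) and the chaperone gene HSP90AA1 rose by 0.33 (limma adjusted p = 0.0460). Corrected for length and GC content, EGLN2 stood at -0.22 and no longer passed (limma adjusted p = 0.179), and with quantile normalization neither did (limma adjusted p = 0.0629 for EGLN2 and 0.221 for HSP90AA1). Of 25 further HIF targets tested, 8 fell (32.0%, against 12.7% of all genes). TFRC, the transferrin receptor, fell most, with 22.7, 29.3 and 18.2 FPKM in shTPD52, against 52.5, 49.2 and 44.97 FPKM in shCtrl (log2 fold change -1.07, limma adjusted p = 0.0110). VLDLR, a lipoprotein receptor, fell by 0.55, PPFIA4 by 0.51 and the collagen hydroxylase PLOD2 by 0.61 (limma adjusted p = 0.0301, 0.0323 and 0.0404). TFRC and PLOD2 were also lower after the length and GC correction, at -0.90 and -0.48, while VLDLR and PPFIA4 were not past the threshold there (-0.25 and -0.20). All of these passing genes outside the 42 also passed without shTPD52 replicate 2. ENO3 lost its call without shCtrl replicate 3 alone. PC and TFRC lost theirs without shTPD52 replicate 1, shCtrl replicate 1 or shCtrl replicate 3, and CITED2 and HSP90AA1 without any of these or shCtrl replicate 2. MPC2, PDPR, EGLN2, VLDLR, PPFIA4 and PLOD2 passed in no leave-one-out fit but the one without shTPD52 replicate 2. Exons of other genes cover 22.5% of MPC2, 19.6% of PDPR, 10.5% of PC and 30.6% of EGLN2, so their levels are uncertain.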

How the data were processed

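RNA was measured in 6 libraries of NCI-H295R cells, grouped by sample title. The deposited table gives FPKM, computed by the authors. HISAT2 2.2.1, featureCounts 2.0.3 and the build GRCh38 appear in the submitters' processing notes, without roles. No source used here states the annotation release or the strand setting. Ensembl identifiers gave symbols for 34864 genes, from a table of gene names or else GENCODE release 29, the source of gene coordinates. Library totals and reads were worked back from the steps of low FPKM values (tolerance 0.02 reads). A floor of 3 reads is 0.0391 to 0.0508 FPKM for 2 kb and covers counting error only. The lengths of genes, which set the recovered reads, were GENCODE's for 19235 genes and searched for to give whole reads in 14138.

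Only genes averaging 1 FPKM or more were fitted with limma 3.58.1 (R 4.3.3), with an intensity trend and Benjamini-Hochberg adjustment over all of them. Fold changes are on the log2(FPKM + 0.5) scale, which understates changes of low genes. The code was tested on simulated data. The members, lists and tests were chosen with earlier results of these data known. All 42 members were named by rule, with up to 4 passing genes per further list. A result for a gene of the further HIF targets is not reported here. Alternatives were pseudocounts 0.1 and 1, no filter or 5 FPKM, median-ratio, quantile and non-mitochondrial scaling, a length and GC correction (loess, span 0.3), limma without trend or with a robust prior, limma-voom on recovered reads, the replicate block and leaving out each library. Protein-coding genes only, the length and GC correction without shTPD52 replicate 2, and that correction of the paralog ratios were added after seeing the data.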

Additional observations from a re-analysis of the deposited data

How the results depend on the processing

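Members higher and lower numbered 1 and 10. The pair was 0 and 1 with no filter (531 genes in all past the threshold, against 2341), and 1 and 6 with median-ratio scaling (2189 genes in all). Correcting for length and GC content gave 4 and 4 (2658 genes in all), and 5 and 11 in that fit without shTPD52 replicate 2 (5139 genes in all). Rescaling to non-mitochondrial reads, limma-voom, protein-coding genes only and the replicate block each gave 2 higher, with 7, 14, 15 and 15 lower. Of all genes, these fits called 1216 of 12782, 2118 of 12660, 1967 of 10705 and 2158 of 12782 lower, against 1621 of 12782 in the main fit. They called 977, 761, 744 and 906 higher, against 720. Leaving out 1 library gave 0 to 2 higher, 0 to 23 lower and 87 to 5825 genes in all. Of all genes called, 30.8% were higher, against 45.4% with median-ratio scaling, 44.6% with non-mitochondrial scaling, 49.2% with quantile normalization and 50.3% after the length and GC correction. The median of the glycolytic members, -0.225, moved to -0.122 with median-ratio scaling. Corrected for length and GC content it was -0.087, and -0.0973 without shTPD52 replicate 2 as well. The median of the other HIF targets, -0.21, was -0.387 to -0.154 with 1 library left out. The causes were not tested.

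Whether the replicate numbers pair the samples is not stated in the labels and is not known. Deviations from the group means correlated at 0.0451, 0.248 and 0.0223 for numbers 1, 2 and 3. With the replicate block 3064 genes were called in place of 2341.

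No called member changed sign in any alternative. Signs of members that did not pass turned as follows. After the length and GC correction the log2 fold change was 0.041 for HK1, 0.26 for GPI, 0.11 for PKM, 0.11 for SLC2A1, 0.14 for PDK3 and 0.055 for EGLN3, and without shTPD52 replicate 2 as well it was 0.0048, 0.32, 0.15, 0.12, 0.17 and 0.16. Median-ratio scaling gave 0.044 for GPI and 0.065 for DDIT4, and non-mitochondrial scaling 0.017 and 0.038. Quantile normalization gave -0.047 for TPI1, -0.093 for ENO1 and 0.0019 for PDK3. With 1 library left out, the range was -0.0429 to 0.1 for BNIP3L, -0.082 to 0.0306 for DDIT4, -0.0321 to 0.0892 for ENO1, -0.0973 to 0.00651 for GPI, -0.205 to 0.19 for PDK1.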
